A study of Mus musculus with 10 samples.

Results

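The CXC chemokine ligands were read in macrophages sorted from lung metastases and from normal lungs of mice. The group was set by name as 10 genes, Cxcl1, Cxcl2, Cxcl3, Cxcl9, Cxcl10, Cxcl12, Cxcl13, Cxcl14, Cxcl16 and Pf4, among 24538 genes in the count tables, and 9 of the 10 had enough signal to be tested with 11571 genes in all. Metastasis-associated macrophages (MAMs, 5 libraries) were MRC1+ LY6C- F4/80+ CD45+ cells with high forward scatter (FSC hi), CD11B+ and CD11C-, sorted from metastases under 1 mm that were dissected and pooled from 2 to 4 mice a sample. The metastases came from E0771-LG cells, a mouse mammary tumour line, given through the tail vein to syngenic C57BL6/J females, so the model is 1 tumour line that reached the lung through the blood. Resident alveolar macrophages (RAMs, 5 libraries) passed the same first gates, were CD11C+ CD11B-, and came from normal lungs. All mice were wild type and 8 to 10 weeks old, and both tissues were digested in the presence of the transcription inhibitors alpha-amanitin and actinomycin D. The tissue state, the tumour and the sorting gate changed together between the groups, so these cannot be told apart.

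Chemokines are small secreted proteins that steer the movement of leukocytes through G protein-coupled receptors, and in the CXC family the first cysteines of the protein are separated by another residue. CXCL1, CXCL2 and CXCL3 attract neutrophils through CXCR2. CXCL9 and CXCL10 are induced by interferons and attract activated T cells and NK cells through CXCR3. CXCL13 attracts B cells through CXCR5, CXCL12 acts through CXCR4 and is scavenged by ACKR3, and CXCL16 is made as a membrane-bound protein that binds CXCR6. PF4 (CXCL4) is best known as a platelet granule protein, and CXCL14 is made constitutively by many epithelia.

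Counts assigned to genes ran from 55391447 to 87523247 in MAM libraries and from 50746305 to 72150650 in RAM libraries. Levels are given as CPM, a count scaled by the TMM-corrected total of the tested genes in its library, where 3 counts correspond to 0.0431 to 0.0671 CPM. The sort was read against markers. Genes of monocyte-derived macrophages (Ccr2, Cx3cr1, C1qa, Apoe and Ms4a7) summed to 2176 to 2725 CPM in MAMs and 49.97 to 64.4 CPM in RAMs, and genes of alveolar macrophages, led by Chil3 in RAMs, to 309 to 588.5 CPM and 11242 to 14357 CPM. In MAMs the alveolar sum was led by Marco, at 89.8 to 389 CPM in MAMs and 284 to 531 CPM in RAMs. Marco overlapped between the groups and was not called, while the other 7 genes of that list were called lower in MAMs. General macrophage genes, led by Lyz2, summed to 20454 to 35362 CPM. Markers of T and NK cells, B cells and dendritic cells summed to at most 3.99, 21.4 and 26.0 CPM in any library, and those of lung epithelium to at most 45.4 CPM. The sum of endothelial markers was higher in MAMs, at 21.7 to 92.7 CPM against 1.86 to 12.4 CPM, led in MAMs by Kdr (log2 fold change 4.93). Pecam1 and Cdh5 were called higher too, but their groups overlapped. Cldn5 was at 0 in every MAM library and at most 0.811 CPM in RAMs. Emcn was at most 0.246 CPM in MAMs and 0.377 CPM in RAMs. The paper states that a sample stands for an individual mouse or for metastases pooled from mice, and the MAM samples were pools. Nothing in the labels says whether the libraries of a group came from separate animals throughout. The tests measure the spread between these samples.

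Of the 10 genes, 7 lie on chromosome 5 of GRCm38, in the positions GENCODE M21 gives. Pf4, Cxcl3, Cxcl1 and Cxcl2 lie on the plus strand within 133504 bases, with Pf4 at chr5:90772435-90773383, Cxcl3 at chr5:90786103-90789600, Cxcl1 at chr5:90891241-90893115 and Cxcl2 at chr5:90903871-90905938. Cxcl9 at chr5:92321347-92328079 and Cxcl10 at chr5:92346638-92348889 are minus-strand neighbours within 27543 bases, and Cxcl13 is at chr5:95956951-95961068 on the plus strand. Cxcl12 is on chromosome 6 (chr6:117168535-117181367, plus), Cxcl16 on chromosome 11 (chr11:70453983-70459984, minus) and Cxcl14 on chromosome 13 (chr13:56288643-56296551, minus).

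Cxcl1, Cxcl2 and Cxcl3 are shown first by the sequence before their RefSeq starts (GRCm38.p6, plus strand, 120 bases each), because all 3 hold the same kappa B word there. It is in capitals. The windows are chr5:90891125-90891244, chr5:90903779-90903898 and chr5:90785981-90786100.
Cxcl1: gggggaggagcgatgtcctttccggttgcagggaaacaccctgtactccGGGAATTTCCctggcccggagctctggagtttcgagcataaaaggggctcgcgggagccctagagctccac
Cxcl2: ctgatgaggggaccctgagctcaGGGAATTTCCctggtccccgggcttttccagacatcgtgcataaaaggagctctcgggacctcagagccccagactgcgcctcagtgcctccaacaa
Cxcl3: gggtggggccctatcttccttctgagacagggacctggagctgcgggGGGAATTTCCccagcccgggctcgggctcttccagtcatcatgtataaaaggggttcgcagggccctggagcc

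The word GGGAATTTCC begins at -71 in Cxcl1, -97 in Cxcl2 and -73 in Cxcl3, where -1 is the last base before the start. It was picked after these sequences were seen, and it occurs on either strand in 29 of 32851 RefSeq promoter windows, or 0.0883%. Each window runs from 250 bases before the start through 50 bases from the start on. The wider kappa B pattern GGGNNNNNCC, to which the word belongs, is in 50.8% of all windows and in 7 of the 9 ligands with a window, so its presence sets these genes apart little.

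The neighbours Cxcl9 (150 bases, chr5:92328080-92328229) and Cxcl10 (250 bases, chr5:92348890-92349139) are printed on their own strand, minus, because they share a receptor and differed in how evenly they were read across MAM libraries. Capitals mark GGGNNNNNCC matches in both and, in Cxcl10, also the first capitals, a match to the interferon-stimulated response element TTTCNNTTTC.
Cxcl9: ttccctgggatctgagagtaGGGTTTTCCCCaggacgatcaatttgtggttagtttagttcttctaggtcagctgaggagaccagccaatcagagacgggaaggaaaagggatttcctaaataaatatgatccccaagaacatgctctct
Cxcl10: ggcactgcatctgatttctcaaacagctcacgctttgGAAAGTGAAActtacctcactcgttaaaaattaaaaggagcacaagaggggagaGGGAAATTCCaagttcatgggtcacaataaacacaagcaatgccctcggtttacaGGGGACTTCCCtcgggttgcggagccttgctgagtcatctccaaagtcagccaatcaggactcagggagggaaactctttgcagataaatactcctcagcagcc

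The Cxcl10 response element reads GAAAGTGAAA at -213, and its kappa B matches begin at -159 and -104. The Cxcl9 match begins at -130. Searched on both strands, TTTCNNTTTC is in 3.44% of windows and among the ligands in Cxcl10 and Cxcl14, and the interferon gamma-activated site pattern TTCNNNGAA is in 8.30% and among the ligands in Cxcl14 alone. Overlapping matches of GGGNNNNNCC on the 2 strands were merged in the capitals. A match in these letters is no evidence of binding.

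All 9 tested ligands were higher in MAMs than in RAMs, at an adjusted p under 0.05 and a fold change over 2, with no overlap between the libraries of the groups. Of all genes tested, 15.3% were called higher, 15.1% were called lower, and 23.7% were higher without overlap. The median log2 fold change of the 9 was 4.94, against -0.02 over all genes tested. To be tested, a gene needed a mean FPKM of 1 or more in MAMs or in RAMs. Cxcl3 and Cxcl13 reached it in MAMs alone, so a higher level there was built into their inclusion and the count over the 9 is a description. In bulk RNA, more cells that express a gene and more RNA per cell cannot be told apart. Fold changes below are log2 values of MAMs over RAMs with their standard error (SE), and adjusted p-values are those of the quasi-likelihood test of edgeR after Benjamini-Hochberg correction over all genes tested.

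**Figure D1:**
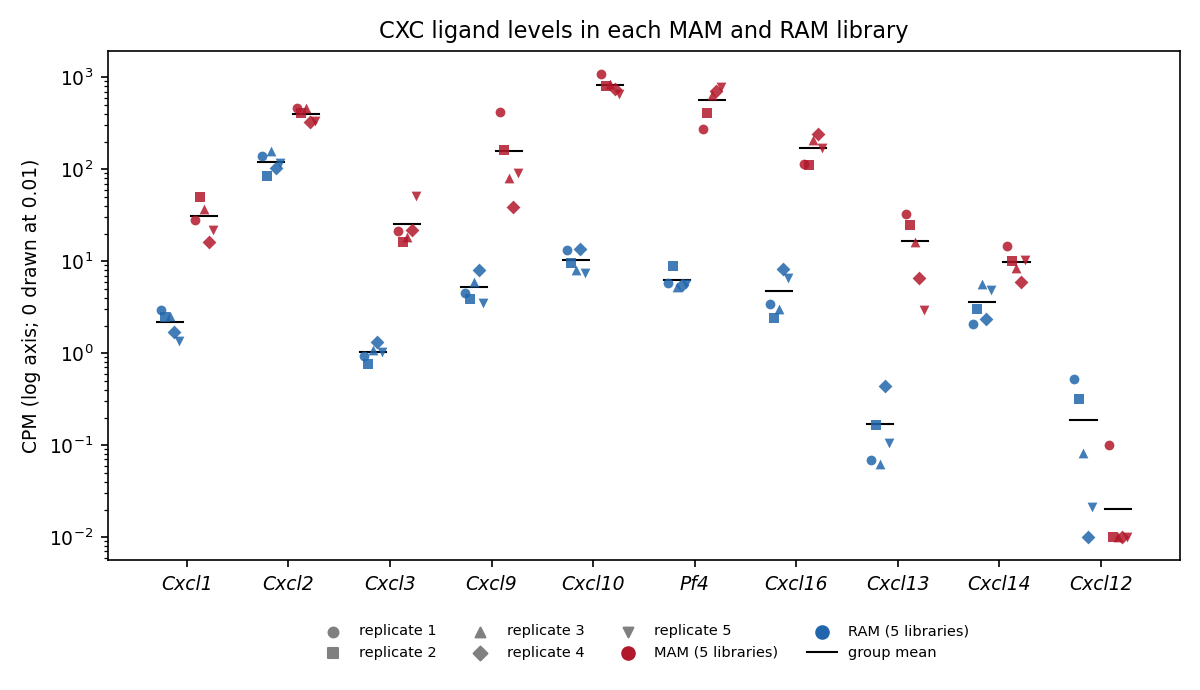
CPM of the 10 CXC ligands (log axis) in 5 MAM libraries (red) and 5 RAM libraries (blue), with a bar at each group mean and a value of 0 drawn at 0.01. The groups are apart for every ligand except Cxcl12, and Cxcl9 and Cxcl13 are spread widest among MAMs.

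Among the ligands for neutrophils, Cxcl2 was the abundant one in both groups and had a small fold change. It was read at 469, 412, 462, 325 and 338 CPM in MAM libraries 1 to 5 and at 141, 83.7, 158, 104 and 116 CPM in RAM libraries 1 to 5. The highest RAM library thus lay well below the lowest MAM library, in a gene that RAMs also expressed strongly. This was a log2 fold change of 1.74 (SE 0.161, 95% interval 1.39 to 2.08, adjusted p = 2.29e-07 by edgeR). Mean levels were 401 ± 67.2 CPM in MAMs and 120.5 ± 29.7 CPM in RAMs (SD, n = 5 each).

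Cxcl1 and Cxcl3 were much lower in RAMs than Cxcl2. Cxcl1 was at 28.4, 50.3, 37.2, 16.3 and 21.7 CPM in MAMs 1 to 5, and at 2.98, 2.48, 2.55, 1.69 and 1.36 CPM in RAMs 1 to 5. Its log2 fold change was 3.79 (SE 0.330, edgeR adjusted p = 1.13e-07). Cxcl3 was at 21.3, 16.1, 18.2, 22.1 and 50.9 CPM in MAMs 1 to 5 and between 0.766 and 1.31 CPM in RAMs. Library MAM 5 stood above the other MAM libraries for Cxcl3, while for Cxcl1 it was the second lowest. Cxcl3 thus had a log2 fold change of 4.65 (SE 0.350, edgeR adjusted p = 2.07e-08).

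The makeup of this trio differed between the groups on the scale per length. FPKM of Cxcl2 was 6.70 to 15.0 times that of Cxcl1 in MAM libraries and 22.6 to 58.6 times in RAM libraries, without overlap. Against Cxcl3 it was 5.16 to 18.3 times in MAMs and 43.9 to 106 times in RAMs, again without overlap. Cxcl2 therefore made up nearly all of the trio in RAMs, with Cxcl1 and Cxcl3 taking more of it in MAMs.

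Cxcl10 was abundant in MAMs. It was read at 1088, 798, 848, 752 and 660 CPM in MAMs 1 to 5 and at 13.2, 9.47, 8.08, 13.5 and 7.37 CPM in RAMs 1 to 5. Every MAM library was far above every RAM library, with little spread within MAMs. Its log2 fold change was 6.33 (SE 0.209, 95% interval 5.88 to 6.77, edgeR adjusted p = 1.70e-12). Cxcl10 shares 133 exon bases with Art3, which was at most 1.59 CPM in MAMs and 2.38 CPM in RAMs.

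Cxcl9, its neighbour, was higher in MAMs too but far from even. Its levels were 422, 161, 80.8, 39.3 and 92 CPM in MAMs 1 to 5 against 3.54 to 8.08 CPM in RAMs. The highest MAM library, MAM 1, was 10.7 times the lowest, MAM 4, whereas for Cxcl10 the highest was 1.65 times the lowest. Cxcl9 had a log2 fold change of 4.94 (SE 0.558, edgeR adjusted p = 2.07e-06), or 4.17 without MAM 1. FPKM of Cxcl10 was 7.77 to 56.6 times that of Cxcl9 in MAMs and 4.22 to 9.32 times in RAMs, and these ranges overlapped.

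Pf4 was close to Cxcl10 in size of change. It was at 274, 406, 639, 715 and 789 CPM in MAMs 1 to 5 and at 5.82, 8.87, 5.30, 5.47 and 5.71 CPM in RAMs 1 to 5. All RAM libraries but RAM 2 were within a narrow band in CPM, while the deposited FPKM was 15.5 to 16.5 in every RAM library. The log2 fold change was 6.49 (SE 0.300, edgeR adjusted p = 7.32e-11). Because Pf4 is a platelet gene, platelet genes were read beside it. Ppbp, the platelet chemokine CXCL7 and a further CXC ligand, was at 70.8 to 255 CPM in MAMs and 1.60 to 3.35 CPM in RAMs, with a log2 fold change of 6.01 (edgeR adjusted p = 7.72e-10). The other 9 platelet and megakaryocyte markers summed to 1.95 to 10.8 CPM in MAMs and 11.5 to 21.6 CPM in RAMs, with Gp5 the highest in RAMs. Treml1 of the same list had a mean of 1.26 CPM in MAMs and 0.254 CPM in RAMs, with overlap. MAM 1, the lowest MAM library for Pf4, had the highest sum of these markers among MAMs. Gp1bb and Gp6 were at 0 in every RAM library and at most 0.0895 and 0.559 CPM in MAMs. The part of platelets in the Pf4 result was not tested.

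Cxcl16 was at 115, 113, 206, 243 and 170 CPM in MAMs 1 to 5 and at 3.41, 2.39, 3.06, 8.33 and 6.50 CPM in RAMs 1 to 5. No RAM library came near a MAM library. The log2 fold change was 5.17 (SE 0.360, 95% interval 4.40 to 5.94, edgeR adjusted p = 8.37e-09). Cxcl16 shares 552 of its 3021 exon bases with Zmynd15, which was itself higher in MAMs (mean 28.7 CPM in MAMs and 0.364 CPM in RAMs, log2 fold change 6.29). The strand setting of the counting is not given in the sources used here, so reads in the shared stretch could belong to either gene.

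Cxcl13 was nearly missing from RAMs. Its counts were 4, 11, 3, 21 and 5 in RAMs 1 to 5 and 1623, 1330, 720, 367 and 206 in MAMs 1 to 5. In CPM this was 33.0, 24.9, 16.1, 6.64 and 2.96 in MAMs and at most 0.438 in RAMs. The highest MAM library was 11.2 times the lowest. Fitted over all libraries, the log2 fold change was 6.63 (SE 0.748, 95% interval 5.03 to 8.23, edgeR adjusted p = 2.01e-06), and 7.31 without RAM 4, the highest RAM library. Since the RAM level is so low, the size of the change is known less well than its direction. By limma it was 3.34 on log2(FPKM + 1), where the added 1 exceeds the RAM FPKM (at most 0.418), and 5.30 on log2(FPKM + 0.1).

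Cxcl14 had the smallest change and low levels. It was at 14.5, 10.1, 8.43, 5.90 and 10.4 CPM in MAMs 1 to 5 and at 2.07, 3.0, 5.59, 2.38 and 4.82 CPM in RAMs 1 to 5. The lowest MAM library was barely above the highest RAM library. This gave a log2 fold change of 1.47 (SE 0.351, 95% interval 0.72 to 2.22, edgeR adjusted p = 0.00228). In a test against a fold change of 2 it was the only ligand not called, which left 8. Fibroblast markers, led by Col3a1, summed to 3.49 to 40.6 CPM in MAMs and 0.270 to 6.05 CPM in RAMs, and Lum was at 0 in every MAM library. Markers of epithelium and tumour cells, led by Krt19, summed to 10.7 to 24.1 CPM in MAMs and 590 to 702 CPM in RAMs, carried by Krt19, Epcam and Cdh1. Krt8 of the same list was higher in MAMs, at 0.615 to 3.31 CPM against at most 0.206 CPM. Krt18 and Krt7 were at most 0.438 and 0.533 CPM in RAMs, and at most 8.84 and 0.806 CPM in MAMs. The separate list of lung epithelium markers, led by Sftpc, summed to far less in RAMs, 25.1 to 45.4 CPM, and to 1.59 to 13.8 CPM in MAMs. The high RAM sum of the first list is thus that of Krt19, Epcam and Cdh1, and is no measure of epithelial cells. The part of fibroblasts, epithelium and tumour cells in the Cxcl14 result was not tested.

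Cxcl12, made mainly by stromal cells, was at the limit of detection. Its counts were 5, 0, 0, 0 and 0 in MAMs 1 to 5 and 31, 21, 4, 0 and 1 in RAMs 1 to 5. The groups overlapped, and the gene was below the filter. The difference of Cxcl12 in log2 CPM, with a prior count of 2, was -1.53 and missed significance in a two-sided exact permutation test (p = 0.127, n = 5 each, where the smallest possible p is 0.00794). Each library was also left out in turn, without adjusting these p-values for their number. Without RAM 4, which had no count, the difference was -2.0 (exact permutation p = 0.0476). The RAM level rested mainly on the 31 and 21 counts of RAM 1 and RAM 2, so no difference is claimed.

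**Figure D2:**
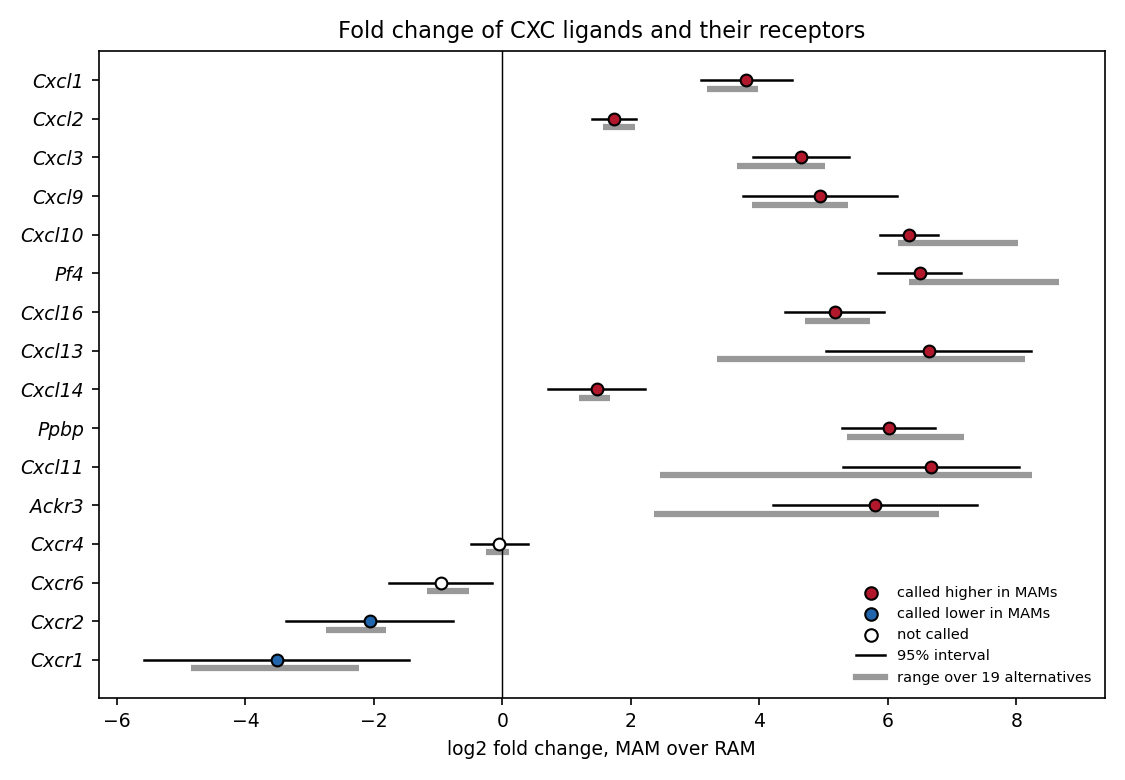
Log2 fold change of MAMs over RAMs for the 9 tested CXC ligands, the further ligands Ppbp and Cxcl11, and 5 receptors. Black lines are 95% intervals, and grey lines span the values under 19 alternatives. Every ligand lies to the right of 0, with Cxcl2 and Cxcl14 nearest to it.

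Compared per length, the ligands had a different order in the groups. By median FPKM in MAMs, Pf4 (1735) was followed by Cxcl10 (816), Cxcl2 (288), Cxcl16 (80.7), Cxcl9 (30.6), Cxcl1 (25.3), Cxcl3 (20.7), Cxcl13 (14.8) and Cxcl14 (7.45). The ranges of neighbours in this order overlapped except between Cxcl10 and Cxcl2 and between Cxcl2 and Cxcl16. In RAMs, Cxcl2 led with a median FPKM of 73.9, ahead of Pf4 (15.9), Cxcl10 (9.99) and Cxcl14 (2.34), and these steps did not overlap. Cxcl1, Cxcl16, Cxcl9 and Cxcl3 followed between 1.87 and 0.864 with overlapping ranges, and Cxcl13 was below them at 0.163.

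Summed over the 10 ligands, FPKM was 2406 to 3174 in MAM libraries and 81.9 to 127 in RAM libraries. Cxcl2 made up 57.7% to 72.8% of this sum in RAMs and 8.04% to 14.4% in MAMs. In MAMs, Pf4 made up 29.8% to 65.2% and Cxcl10 20.6% to 44.4%. In RAMs they made up 12.5% to 20.2% and 6.86% to 13.8%. Of these 10 ligands, Cxcl2 thus held most of the sum in RAMs, and Pf4 with Cxcl10 most of it in MAMs. In MAM 1 alone, Cxcl10 (44.4%) was ahead of Pf4 (29.8%).

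**Figure D3:**
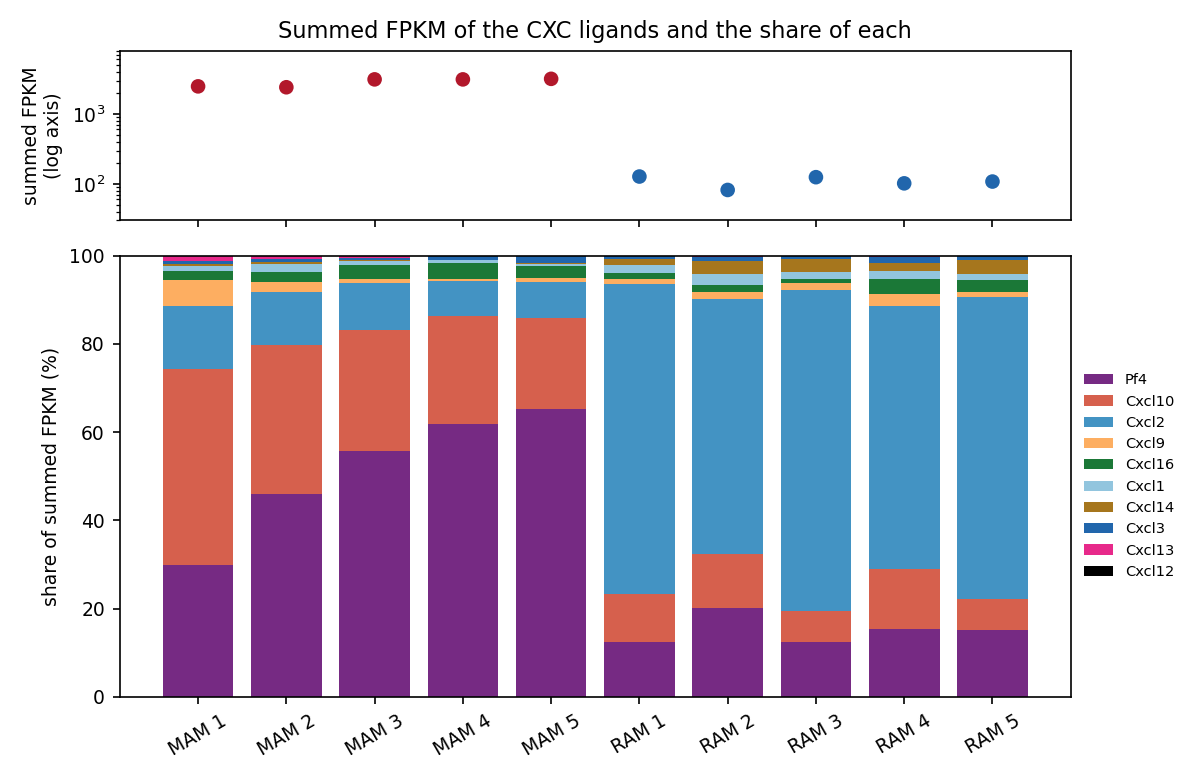
Upper panel: FPKM summed over the 10 CXC ligands in each library (log axis), in MAMs (red) and RAMs (blue). Lower panel: percent of that sum taken by each ligand, where Cxcl2 fills 57.7% to 72.8% of every RAM column and Pf4 with Cxcl10 fills most of every MAM column.

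The MAM libraries differed from each other more for some ligands than for others. The standard deviation of log2 CPM over MAM libraries was 1.43 for Cxcl13 and 1.28 for Cxcl9, larger than for 96.3% and 95.2% of the genes tested. For Cxcl10 it was 0.266 and for Cxcl2 0.247, close to the median of 0.282 over all genes tested. MAM 1 was highest of the MAM libraries for Cxcl2, Cxcl9, Cxcl10, Cxcl13 and Cxcl14 and lowest for Pf4. Ppbp had the same lowest and highest libraries as Pf4, and Cxcl11, the third CXCR3 ligand, the same ones as Cxcl9. MAM 1 also had the highest sum of fibroblast markers (40.6 CPM) and the lowest sum of endothelial markers (21.7 CPM). MAM 4, the lowest library for Cxcl1, Cxcl2, Cxcl9 and Cxcl14, had the highest sum of endothelial markers (92.7 CPM, with Kdr at 54.3 CPM). Their part in these differences was not tested. With 5 libraries, no correlation was computed.

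**Figure D4:**
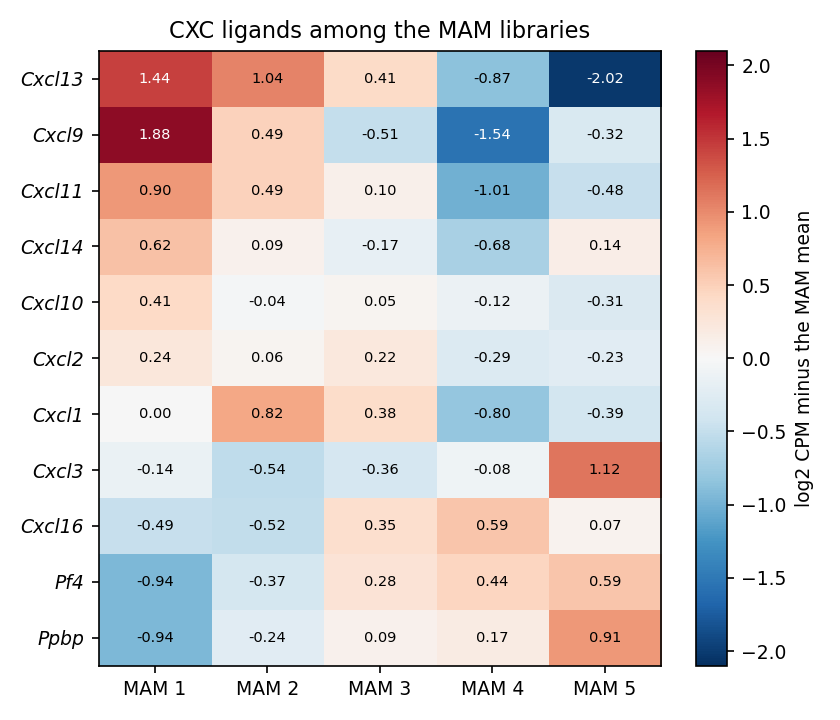
Log2 CPM of 11 CXC ligands in each MAM library minus the mean of the MAM libraries, where red is above and blue below that mean. Cxcl9 runs from 1.88 in MAM 1 to -1.54 in MAM 4, and Pf4 and Ppbp are both at -0.94 in MAM 1.

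The RAM level of each ligand was also set against how low other genes went. Among the 86 genes above 1000 CPM in MAMs, none was below 1.06% of its MAM level in RAMs (C1qb), and among the 65 genes above 1000 CPM in RAMs none was below 0.992% of its RAM level in MAMs (Chil3). Among genes above 100 CPM, the class of Pf4 and Cxcl10, the lowest percents were smaller, 0.768% in RAMs (Ifi44) and 0.537% in MAMs (Dnah11), so 1.06% is no limit at their level. Cxcl13 (1.17%), Pf4 (1.27%) and Cxcl10 (1.45%) were the ligands nearest to these percents. Cxcl16 (3.21%), Cxcl9 (3.84%), Cxcl3 (4.61%) and Cxcl1 (8.37%) were further above them, and Cxcl2 (34.9%) and Cxcl14 (42.1%) far above. After 1% of the mean level of the other group was subtracted from each library, the log2 fold change was 8.66 for Pf4, 8.13 for Cxcl13 and 8.03 for Cxcl10, while Cxcl1 was at 3.98. Whether reads had passed between libraries was not tested.

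**Figure D5:**
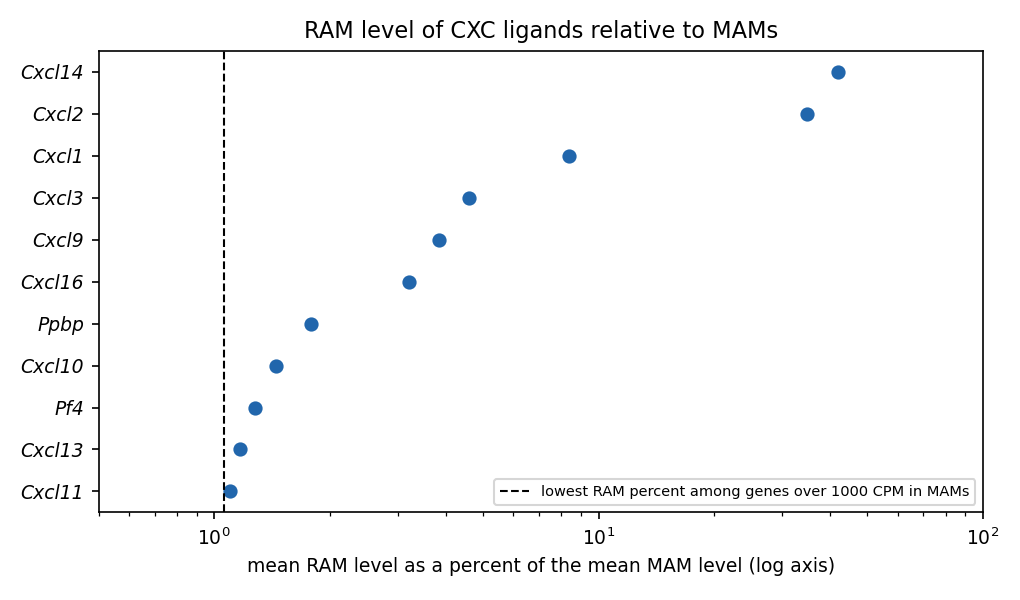
Mean RAM level as a percent of the mean MAM level (log axis) for 11 CXC ligands, on totals without TMM scaling. The dashed line is the lowest such percent among genes above 1000 CPM in MAMs, 1.06%; Cxcl11, Cxcl13, Pf4 and Cxcl10 lie next to it. Among genes above 100 CPM in MAMs the lowest percent was 0.768%.

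Of 5 further CXC ligands, 3 were tested and called higher in MAMs, beside 15.3% of all genes tested. They were Ppbp, Cxcl11 and Cxcl5, of which Cxcl11 and Cxcl5 passed the filter through their MAM level alone. Cxcl11 was at 4.23 to 16.0 CPM in MAMs and at most 0.145 CPM in RAMs (edgeR adjusted p = 3.59e-07). With 0 to 8 counts in RAM libraries, the size of its change was uncertain, with a log2 fold change of 6.67 by edgeR, 2.46 by limma on log2(FPKM + 1) and 8.24 after the subtraction. RefSeq lists mouse Cxcl11 as a transcribed pseudogene. Cxcl5, a neutrophil attractant of epithelia, had 40 to 264 counts in MAM libraries and 0 to 2 in RAM libraries, too few in RAMs for a fold change. Cxcl15 (at most 2.13 CPM) and Cxcl17 (at most 0.604 CPM) were below the filter.

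The receptors of these ligands moved in both directions. Of 8 receptors, 5 were tested, 1 was called higher in MAMs and 2 lower, beside 15.3% and 15.1% of all genes tested. Cxcr2, the receptor for CXCL1, CXCL2 and CXCL3, was at 1.59 to 18.7 CPM in MAMs and 17.9 to 46.8 CPM in RAMs, overlapping by the highest MAM library. Its log2 fold change was -2.07 (edgeR adjusted p = 0.00890) and -2.75 without MAM 4. The related Cxcr1 was at 0.0224 to 1.43 CPM in MAMs and 3.13 to 13.2 CPM in RAMs, with a log2 fold change of -3.52 (edgeR adjusted p = 0.00584) that was -4.12 without MAM 4 and -4.13 without MAM 5. MAM 4 and MAM 5 were the MAM libraries highest for both receptors and also for the neutrophil markers other than Csf3r and Cxcr2, which summed to 3.76 to 18.4 CPM in MAMs and 1.73 to 4.08 CPM in RAMs. This sum was led in MAMs by S100a8 (mean 4.12 CPM) and S100a9 (mean 3.88 CPM). Csf3r was at 98.5 to 210 CPM in MAMs and 47.5 to 80.7 CPM in RAMs. Ly6g was at 0 in every RAM library and in MAM 4 and MAM 5, and reached 1.48 CPM in MAM 3. Ngp was at 0.209 to 1.68 CPM in RAMs and at most 0.246 CPM in MAMs, with overlap. The part of neutrophils in these results was not tested.

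Cxcr4, the CXCL12 receptor, was at 37.9 to 102 CPM in MAMs and 58.7 to 85.9 CPM in RAMs. No difference was detected, with a log2 fold change of -0.05 and a 95% interval of -0.50 to 0.40 (edgeR adjusted p = 0.865). Ackr3, the scavenger for CXCL12 and CXCL11, was at 4.23 to 17.9 CPM in MAMs and 0.0209 to 0.481 CPM in RAMs (log2 fold change 5.80, edgeR adjusted p = 7.88e-06), and the change was 6.8 without RAM 2 and 2.36 by limma on log2(FPKM + 1). Cxcr6, the CXCL16 receptor, was at 1.87 to 4.70 CPM in MAMs and 3.23 to 7.74 CPM in RAMs. Its log2 fold change of -0.96 had an edgeR adjusted p = 0.0393 but stayed under the fold limit. Cxcr3, the receptor for CXCL9 and CXCL10, was below the filter, at 0.246 to 1.32 CPM in MAMs and at most 0.0150 CPM in RAMs, without overlap. Cxcr5, for CXCL13, was below it too, at most 5.02 CPM in any library, and Ackr1 had 3 counts in 1 library.

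Enzymes that cut CXC ligands or release CXCL16 were read next, from a list of 10 of which 6 were tested. Anpep, an aminopeptidase, was at 554.5 to 774 CPM in MAMs and 9.33 to 19.99 CPM in RAMs (log2 fold change 5.83, edgeR adjusted p = 6.14e-12). Mmp12, the macrophage elastase, had a log2 fold change of 5.04, and Mmp9, a gelatinase, of 6.21 (6.81 without RAM 1, and 2.77 by limma on log2(FPKM + 1)). These 3 were called higher and none was called lower, beside 15.3% and 15.1% of all genes tested. Adam10, which sheds CXCL16, was at 251 to 409 CPM in MAMs and 142.5 to 229 CPM in RAMs, a log2 fold change of 0.88 that passed the p (edgeR adjusted p = 1.18e-04) and not the fold limit. Adam17 was at 0.47. The neutrophil enzymes Ctsg and Elane were at 0 in all 10 libraries.

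Of 12 regulators known to act on CXC ligand genes, all were tested. The p was passed by 8, all higher in MAMs, where 56.2% of all genes tested passed it. In MAMs 5 were called higher, beside 15.3% of all genes tested. The 5 called were Irf1 (log2 fold change 2.36), a transcription factor of the interferon response, Ifngr2 (1.34), a chain of the interferon gamma receptor, Nfkbia (1.60) and Nfkbiz (2.54), inhibitory and nuclear IkappaB proteins, and Zfp36l1 (2.03), an RNA decay factor. Nfkb1, a subunit of NF-kappa B, was at 0.07 with an edgeR adjusted p = 0.634. Of the other subunits listed, Rel was at 0.56 (edgeR adjusted p = 2.95e-04), under the fold limit, and Rela at 0.23 (edgeR adjusted p = 0.0825). Zfp36, which destabilises chemokine mRNAs, had the highest level of the list in both groups (at most 1196 CPM in MAMs and 699 CPM in RAMs). Its log2 fold change of 0.84 passed the p (edgeR adjusted p = 2.09e-07) and not the fold limit.

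Cxcl1 and Cxcl2 are genes that cells can switch on quickly during tissue dissociation, and 8 early response genes were read as well. All 8 passed the p, 4 higher and 4 lower in MAMs, where 56.2% of all genes tested passed it. Past the fold limit were Atf3, higher (log2 fold change 1.38), and Fosb, lower (-2.29). The list as a whole summed to 1790 to 2087 CPM in MAMs and 2044 to 2280 CPM in RAMs. The part of dissociation in the Cxcl1 and Cxcl2 results was not tested.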

How the data were processed

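RNA-seq of 5 MAM and 5 RAM samples was used. The libraries were made with the Ovation RNA-Seq System V2 kit and sequenced as read pairs. Per the labels and the methods, the authors aligned reads with TopHat2 (2.0.13) to GRCm38/mm10, counted reads per gene on UCSC RefGene models with HTSeq (0.6.1), deposited the raw counts of each library, and deposited FPKM values from Cufflinks (2.2.1). The strand setting is not given in the sources used here.

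Lines that name no gene held 54.6% to 58.3% of all counts in MAMs and 62.2% to 64.1% in RAMs, and were left out. A gene was tested where FPKM averaged 1 or more in MAMs or in RAMs, with edgeR (4.0.16, R 4.3.3), TMM normalization and the quasi-likelihood test of MAMs against RAMs, with Benjamini-Hochberg adjustment. A gene was called at an adjusted p under 0.05 and a fold change over 2. TMM factors were 0.898 to 0.943 in MAMs and 1.07 to 1.10 in RAMs. For Cxcl12, log2 CPM (prior count 2) entered an exact permutation test. The SE is the log2 fold change over the root of the F statistic. No 2 libraries were alike: any pair differed in at least 15583 genes. FPKM as deposited by the authors served for the filter, for levels between genes and their ratios, and for the limma alternatives.

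Alternatives were DESeq2 (1.42.0), a replicate block, limma (3.58.1) on log2(FPKM + 1) and log2(FPKM + 0.1), RLE or upper-quartile factors, the filter of edgeR or none, subtraction of 1% of the other group's level, leaving out single libraries, and testing for more than a fold change of 2. The ligands, the gene lists and the genes named were chosen with earlier results of these data known. Every ligand and receptor is named, and a selection from the other lists. The selection holds the genes called among the reported enzymes, regulators and early response genes, and some others, also genes at or near 0. Some listed genes are not reported here and were left out of the counts and sums of their lists. Promoter windows came from RefSeq (GRCm38.p6) and matched 9 of the 10 ligands, all but Cxcl16. Intervals and limits on a count of 0 (up to 3 counts) cover counting or sample spread only, since the reads carry no molecular identifiers. Figures were drawn with matplotlib (3.10.9).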

Additional observations from a re-analysis of the deposited data

Results flagged for a closer look

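In each group of 5 libraries, a value was marked when its gap to the nearest other library was large against the whole range of the group. Chance does this for about 1 in 20 groups if values are normally distributed, which CPM need not be. Where all other libraries were at 0, any count was marked, so the number marked is a description. Over the 15 ligands and 8 receptors, 45 groups were examined and 11 values were marked, always the highest of its group.

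Among the ligands, Cxcl3 was at 50.9 CPM in MAM 5, with the other MAM libraries at 16.1 to 22.1 CPM. Pf4 was at 8.87 CPM in RAM 2, with the other RAM libraries at 5.30 to 5.82 CPM. In FPKM, RAM 2 was at 16.5 and the lowest RAM library at 15.5. Cxcl13 was at 0.438 CPM in RAM 4 (21 counts), with the others at 0.0621 to 0.165 CPM. Cxcl12 was at 0.102 CPM in MAM 1 (5 counts), with the others at 0. Cxcl17 was at 0.604 CPM in MAM 3 (27 counts) and at 0.0171 CPM in RAM 1 (1 count).

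Among the receptors, Cxcr3 was at 1.32 CPM in MAM 4 (73 counts), where the other MAM libraries were at 0.246 to 0.488 CPM, and at 0.0150 CPM in RAM 2 (1 count). Cxcr5 was at 5.02 CPM in RAM 2 (334 counts), where the other RAM libraries were at 1.09 to 2.05 CPM. Ackr3 was at 0.481 CPM in RAM 2 (32 counts), and Ackr1 at 0.0639 CPM in RAM 5 (3 counts). RAM 2 held 4 of the 11 marked values.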

How the results depend on the processing

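Each of the 9 tested ligands stayed higher in MAMs and past the p in all of its 19 alternatives, 171 fits in all. With the replicate block, 9 ligands were called higher, and all genes called in either direction numbered 3526. Over all genes tested, same-numbered MAM and RAM libraries did not deviate together (correlations from -0.0366 to 0.0294). Such correlations cannot show whether same-numbered samples were handled together with an effect on some genes. In the test against a fold change of 2, further CXC ligands and receptors called lower in MAMs numbered 1. The log2 fold change of Cxcr4 turned to 0.033 without MAM 1, 0.10 without MAM 2 and 0.045 without RAM 5, with a lowest value of -0.26. The log2 fold change of Nfkb1 turned to -0.10 with upper-quartile factors, -0.026 by limma on log2(FPKM + 1), -0.027 on log2(FPKM + 0.1) and -0.028 without MAM 1, with a highest value of 0.13. Upper-quartile factors moved the median of all genes by -0.17. The p of Cxcr6 missed the threshold in 11 of 19 alternatives (highest adjusted p 0.101). Limma on log2(FPKM + 1) gave smaller changes for low genes, 3.18 for Cxcl1, 3.65 for Cxcl3, 3.89 for Cxcl9, 3.34 for Cxcl13, 2.46 for Cxcl11, 2.36 for Ackr3 and 2.77 for Mmp9. The cause was not tested. Depth limits Cxcl12, Cxcl5 and the RAM level of Cxcl13.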
